A study of Mus musculus with 4 samples.

Results

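The Ikaros family of transcription factors has 5 members in the mouse, Ikzf1 (Ikaros), Ikzf2 (Helios), Ikzf3 (Aiolos), Ikzf4 (Eos) and Ikzf5 (Pegasus), and all 5 were on the array. They were chosen by name: every non-control probe whose gene name, older synonym or accession belongs to a member was taken. This gave 14 of the 41174 probes and 5 of the 27597 genes of the array: 1 probe for Ikzf1, 5 for Ikzf2, 4 for Ikzf3, 3 for Ikzf4 and 1 for Ikzf5. All 14 probes were well above background on all 4 arrays, so no member was lost to a filter on dim probes. Of the Ikzf2 probes, 3 carry the name A730095J18Rik in the files, an older synonym of Ikzf2.

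The 4 arrays held RNA of CD4+ T cells from spleen and lymph nodes of BALB/c mice, 1 array per group. Naive T cells were CD4+CD25-CD62Lhi cells and natural regulatory T cells (Treg) were CD4+CD25+ cells, both freshly isolated and not transduced. The hairpin libraries came from Treg that received a lentivirus with GFP and a short hairpin RNA, were kept for 60 h in medium with human IL-2, and were then sorted for GFP. The hairpin of the library labelled si-Eos was directed at Eos, and that of the one labelled si-RL at Renilla luciferase, the control. No age of the animals is given in the labels, nor is it stated how many animals gave each sample. Fresh Treg differ from both hairpin libraries in virus, culture, IL-2 and the GFP gate together, so these cannot be told apart against Treg. The labels name a CD62L gate for the naive cells only.

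Ikaros family proteins carry DNA-binding zinc fingers near the N terminus and a separate group of zinc fingers near the C terminus through which the members bind themselves and each other. They can repress or activate genes, and they do so with chromatin complexes such as NuRD, Sin3, CtBP and SWI/SNF. Ikaros is needed for lymphocyte development, Aiolos is best known from B cells, Helios marks many Treg, and Eos has been described as a partner of Foxp3 in gene silencing in Treg. Pegasus is the most distant member and binds other DNA sequences. The title of the series asks about the part of Eos in silencing by Foxp3, so the member that the hairpin was aimed at is itself one of the 5.

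As each group was a single array, replicate spread could not be measured. No test was run, no p-value is given, and each difference is between 2 libraries, not between conditions. Values after ± combine the errors that the scanner software estimated for both spots. This error is technical only, and the number of arrays limits the precision. A difference is on the log2 scale after each array was divided by its own 75th percentile, which was 303 for naive T cells, 392 for Treg, 320 for si-Eos and 262 for si-RL. Signals are the scanner's processed signal before that division. Brightness depends on the probe, so signals and levels are compared between arrays for the same probe, never between probes. A member was counted as higher or lower in a comparison when its brightest probe (by log2 level averaged over all arrays) differed by at least 2-fold. Across the arrays, 64.0% to 68.3% of all probes were well above background.

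The targeted member went against its label. All 3 Ikzf4 probes read Eos mRNA as higher, not lower, in the library labelled si-Eos, compared with the one labelled si-RL. The words "si-Eos" and "si-RL" below therefore mean the library that carries that label. Each direction between these libraries would turn if the labels were exchanged.

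**Figure D1:**
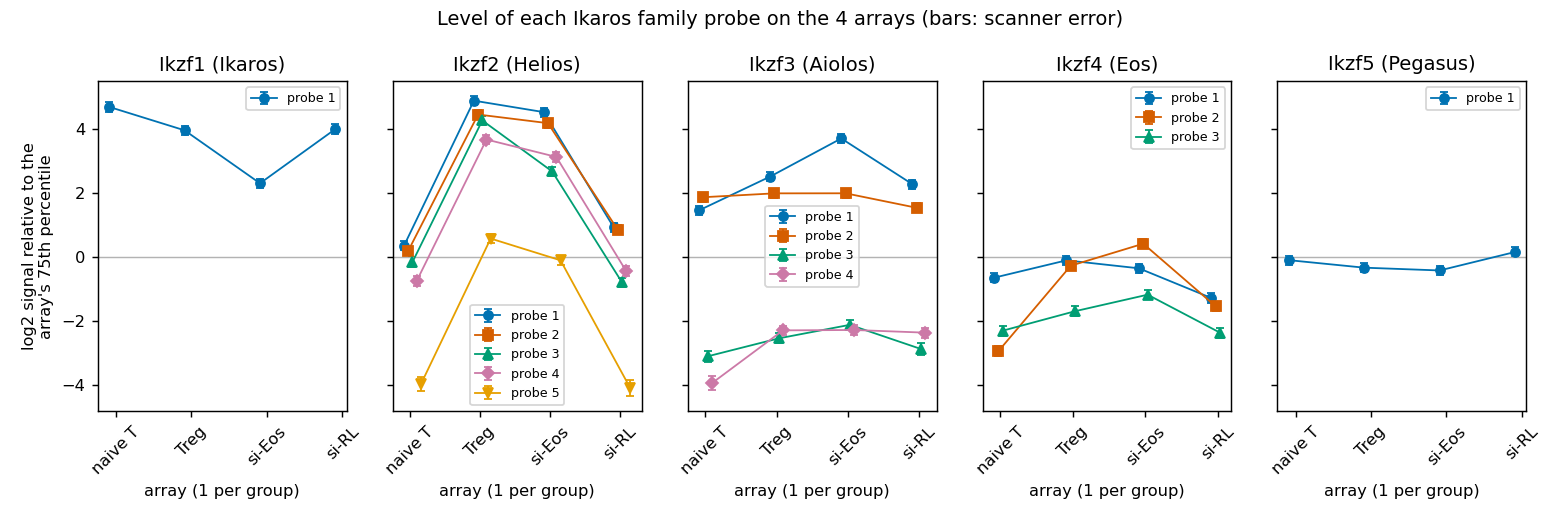
Level of each of the 14 Ikaros family probes on the 4 arrays, as log2 signal relative to the 75th percentile of the array, with bars for the scanner error and 1 panel per member. Ikzf2 was high in Treg and si-Eos and low in naive T cells and si-RL on all 5 probes, Ikzf1 was lowest in si-Eos, and the Ikzf3 and Ikzf4 probes differed among themselves. Heights of different probes are not comparable.

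Ikzf4, the Eos gene, had 3 probes that disagreed in size. The brightest (chr10:128036782-128036841, mm8) had signals of 192, 363, 249 and 107 for naive T cells, Treg, si-Eos and si-RL. Treg was highest and si-RL lowest, and si-Eos lay within 2 scanner errors of both Treg and naive T cells. Probe 2 (chr10:128036473-128036532, mm8), 309 bases away, had signals of 39.1, 323, 425 and 89.6 in the same order. Here naive T cells were lowest and si-Eos was highest. Probe 3 (chr10:128037711-128038748, mm8, spanning 1038 bases) had signals of 61.1, 121, 141 and 50.6.

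Between the hairpin libraries, si-Eos exceeded si-RL by 0.93 ± 0.21 on Ikzf4 probe 1, 1.96 ± 0.21 on probe 2 and 1.19 ± 0.22 on probe 3. By the brightest probe, at 1.90-fold, Ikzf4 fell just short of the 2-fold count, while the other 2 probes passed it. All 3 probes were lower in si-RL than Treg, at -1.18, -1.27 and -0.67. The library labelled si-Eos was at -0.25 on probe 1 and at 0.69 and 0.52 on probes 2 and 3, so the probes did not share a direction there, and with local background corrected by normexp, a model of signal plus background, probe 3 turned to -0.52. No Ikzf4 probe was 2-fold lower in si-Eos than in Treg.

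For Treg against naive T cells, Ikzf4 differed by 0.54 ± 0.20 on probe 1, 2.68 on probe 2, or 6.39-fold, and 0.61 on probe 3. The range over the 3 probes was 2.13, and 0.555% of the genes with several probes had a range at least as wide. Probe 2 exceeded probe 1 by 2.13 ± 0.30 in this comparison and by 1.03 ± 0.29 between the hairpin libraries. The size on probe 2, which was dim in naive T cells, moved with the background: with the 2 normexp settings its difference was 1.34 and 1.62, and its gap to probe 1 was 1.04 and 1.28. Eos mRNA was thus higher in Treg than naive T cells by all 3 probes, but the size rested on the probe and on the background correction.

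Ikzf2, which encodes Helios, had the widest range of the family, 4.53 log2 units on its brightest probe. This probe (chr1:69471966-69472025, mm8) gave processed signals of 387, 11530, 7341 and 498 for naive T cells, Treg, si-Eos and si-RL. Treg and si-Eos were high and naive T cells and si-RL were low, with no array in between. After scaling, Treg exceeded naive T cells by 4.53 ± 0.20, or 23.0-fold, and si-Eos exceeded si-RL by 3.59 ± 0.20, or 12.1-fold. The library labelled si-RL was lower than Treg by a log2 difference of -3.95 ± 0.20, or 15.5-fold. Against Treg, si-Eos was at -0.36 ± 0.20, within 2 scanner errors.

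The other Ikzf2 probes had the same split between arrays. Probe 2 (chr1:69469135-69469194, mm8) had signals of 345, 8536, 5780 and 471 for naive T cells, Treg, si-Eos and si-RL. Probe 4 (chr1:69464487-69464546, mm8) had signals of 179, 4969, 2783 and 193 in that order. Probe 5 (chr1:69466266-69466325, mm8) had 19.1, 582, 297 and 15.2. Over all 5 probes, Treg was above naive T cells by 19.1-fold to 23.5-fold and si-Eos was above si-RL by 10.1-fold to 15.9-fold. The upper ends are those of probe 5, whose signal was dim in naive T cells and si-RL. With normexp using 1 background value per array its log2 differences were 2.70 and 2.03, and with local background 2.04 and 2.0. The spread of the 5 log2 differences for Treg against naive T cells was 0.30, and 37.9% of the 5763 genes with several measured probes had a range at least as wide.

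Probe 3 of Ikzf2 (chr1:69615427-69615486, mm8) stood apart from the others in 1 respect. It lies 143461 bases from the brightest probe, on the side away from the 3′ end, while the other 4 lie within 7479 bases of each other. It read 270, 7509, 2034 and 151 for naive T cells, Treg, si-Eos and si-RL. Among the untransduced libraries, and between the hairpin libraries, it moved with the brightest probe: the difference between the 2 probes' log2 differences was -0.10 ± 0.29 for Treg against naive T cells and -0.13 ± 0.29 for si-Eos against si-RL. Against Treg it was lower than the brightest probe: its log2 difference minus that of the brightest probe was -1.11 ± 0.29 in si-RL and -1.23 ± 0.29 in si-Eos. In si-Eos this probe was 3.01-fold below Treg, the only Ikzf2 probe of 5 that differed by 2-fold there. With the 2 normexp settings these gaps were -0.88 and -0.87 in si-RL, and -1.27 and -1.25 in si-Eos. Which exon the probe lies in was not analysed here.

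The order of the arrays differed among Ikzf2 probes only between neighbours. Treg was highest and si-Eos next on all 5. These top 2 were within 2 scanner errors on probes 1 and 2 and further apart on probes 3, 4 and 5. Naive T cells and si-RL were within 2 scanner errors on probes 4 and 5. On probes 1 and 2 si-RL was above naive T cells by 0.58 and 0.66, and on probe 3 it was below by a log2 difference of -0.63.

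Ikzf1, the Ikaros gene, was read by 1 probe (chr11:11658319-11661278, mm8, spanning 2960 bases). Its signals were 7784, 6064, 1572 and 4175 for naive T cells, Treg, si-Eos and si-RL. Relative to the array's 75th percentile it was highest in naive T cells, next in si-RL and Treg, which lay within 2 scanner errors of each other, and lowest in si-Eos. It was 3.24-fold lower in si-Eos than in si-RL, a log2 difference of -1.70 ± 0.20, and 3.15-fold lower in si-Eos than in Treg (-1.66 ± 0.20). Treg lay below naive T cells by a log2 difference of -0.73 ± 0.20, short of 2-fold. The library labelled si-RL differed from Treg by 0.04 ± 0.20.

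The changes of Ikzf1 and Ikzf2 ran opposite ways for Treg against naive T cells and for si-Eos against si-RL. The Ikzf2 difference exceeded the Ikzf1 difference by 5.26 ± 0.29 for Treg against naive T cells and by 5.29 ± 0.29 for si-Eos against si-RL. No other pair of members was further apart in either comparison. These comparisons share no array. Against Treg, the Ikzf2 difference minus the Ikzf1 difference was -3.99 ± 0.29 in si-RL and 1.30 ± 0.29 in si-Eos. There Ikzf1 was at 0.04 ± 0.20 in si-RL. In si-Eos both values were negative, -1.66 ± 0.20 for Ikzf1 and -0.36 ± 0.20 for Ikzf2.

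Ikzf3, the Aiolos gene, was read by 4 probes that also disagreed. The brightest, probe 1 (chr11:98300382-98300441, mm8), had signals of 828, 2226, 4151 and 1262 for naive T cells, Treg, si-Eos and si-RL. It was highest in si-Eos, and Treg and si-RL lay within 2 scanner errors of each other. Treg exceeded naive T cells by 1.06 ± 0.20, si-Eos exceeded si-RL by 1.43 ± 0.20, and si-Eos exceeded Treg by 1.19 ± 0.20. Probe 2 (chr11:98283204-98283263, mm8), 17178 bases away, had signals of 1101, 1548, 1266 and 758 in the same array order. On probe 2 all neighbours in the order of levels were within 2 scanner errors, and the same 3 differences were 0.12, 0.45 and 0.00. Of arrays further apart in that order, si-RL was beyond 2 scanner errors from si-Eos (0.45 ± 0.20) and from Treg (-0.45 ± 0.20).

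The remaining Ikzf3 probes differed again. Probe 3 (chr11:98283495-98283554, mm8) had signals of 35.1, 67.0, 73.3 and 35.6, with 0.56 ± 0.23 for Treg against naive T cells and 0.76 between the hairpin libraries. Probe 4 (chr11:98329877-98329935, mm8) had signals of 19.6, 79.6, 65.6 and 50.7, with 1.65 ± 0.27 and 0.08. Naive T cells were the lowest array on 3 of the 4 probes, and si-RL was the lowest on probe 2. The difference between probes 1 and 2 was 0.94 ± 0.29 for Treg against naive T cells, 0.98 ± 0.29 for si-Eos against si-RL and 1.19 ± 0.29 for si-Eos against Treg. For si-RL against Treg it was 0.21 ± 0.29. Of the genes with several measured probes, 1.3% had a range as wide as that of Ikzf3 for Treg against naive T cells, 12.6% between the hairpin libraries and 61.0% for si-RL against Treg. For si-Eos against si-RL and against Treg, only the brightest of the 4 probes reached 2-fold, and for Treg against naive T cells probe 4 did too. With normexp, probe 4 was there at 0.51 using 1 background value per array and at 1.12 using local background.

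Ikzf5, the Pegasus gene, had the narrowest range over the 4 arrays when members were read by their brightest probe, 0.58 log2 units on its 1 probe (chr7:131180404-131180463, mm8). Its signals were 282, 310, 238 and 291 for naive T cells, Treg, si-Eos and si-RL. All 3 pairs of neighbours in the order of its levels were within 2 scanner errors. Treg differed from naive T cells by -0.24 ± 0.20, which turned to 0.04 when the arrays were scaled by spike-in probes, which read RNA added to each sample, and the largest of its differences in the 4 comparisons was -0.58 ± 0.20 between si-Eos and si-RL. None reached 2-fold.

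**Figure D2:**
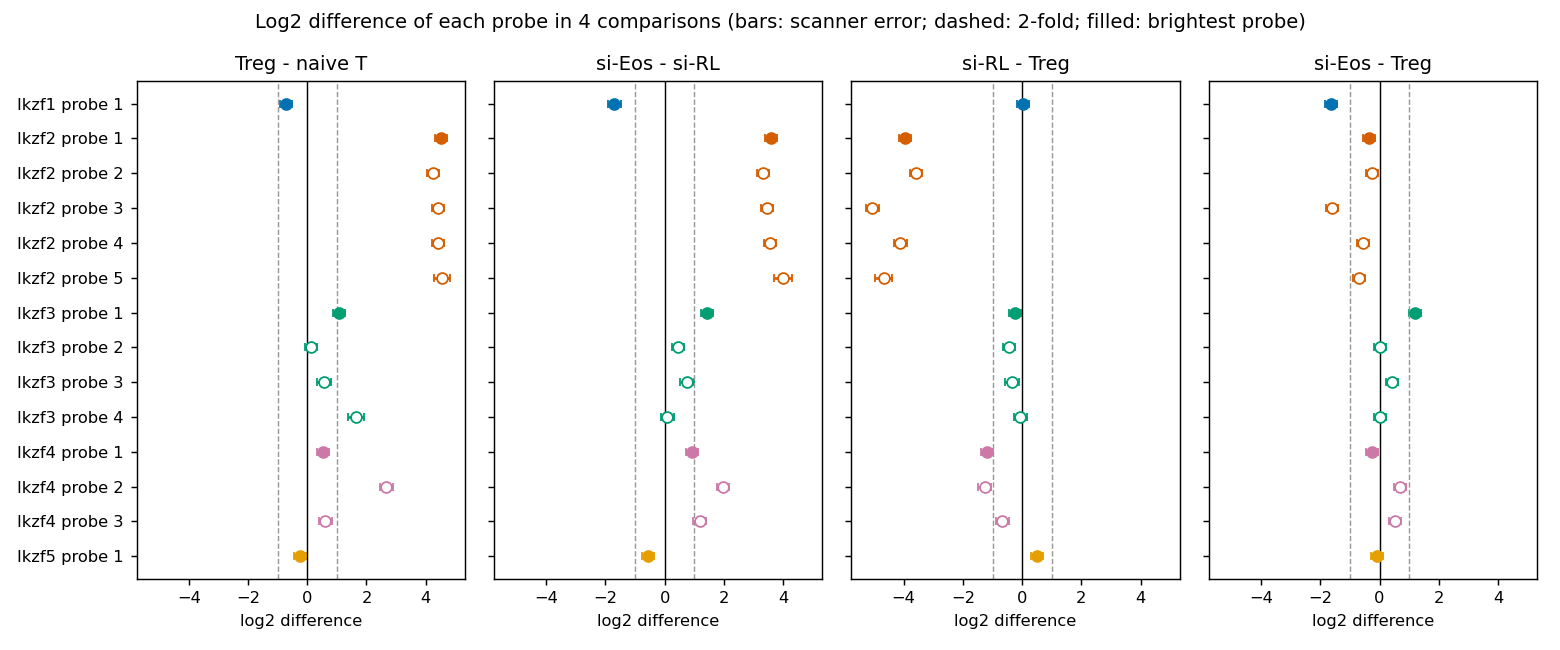
Log2 difference of each Ikaros family probe in 4 comparisons, with bars for the scanner error, dashed lines at 2-fold, and filled points for the brightest probe of each member. The 5 Ikzf2 probes lie between 4.26 and 4.56 for Treg against naive T cells, while the 3 Ikzf4 probes lie between 0.54 and 2.68.

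Set against all genes, the members did not move as a group. For Treg against naive T cells, 2 of 5 members (Ikzf2 and Ikzf3) counted as higher and 0 as lower. With median scaling or a normexp background, Ikzf3 fell short and 1 member, Ikzf2, was left. The background over the 17595 measured genes was 5.52% at least 2-fold higher and 2.04% lower. Ikzf2 was in the far tail, with 0.0796% of genes differing by more. The share of genes that differed by more was 6.98% for Ikzf3, 12.5% for Ikzf1, 20.0% for Ikzf4 and 51.2% for Ikzf5. The median of the 5 members was 0.54, against -0.02 over all measured genes. By probe, 8 of 14 passed 2-fold upward and 0 downward, against 5.23% and 1.92% of all measured probes. Of these 8, 5 were the Ikzf2 probes, which share a gene.

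Between the hairpin libraries, 2 members (Ikzf2 and Ikzf3) were at least 2-fold higher in si-Eos and 1 (Ikzf1) was lower. With the mean of probes Ikzf3 was at 0.68 and fell short, and Ikzf4 passed at 1.36. Of the 17085 measured genes, 10.7% were higher and 10.1% lower, so a 2-fold difference was more frequent here than between the untransduced libraries. The share of genes that differed by more was 0.755% for Ikzf2, 6.46% for Ikzf1, 9.96% for Ikzf3, 23.7% for Ikzf4 and 43.9% for Ikzf5. The members' median was 0.93, against 0.04 over all genes. By probe, 8 of 14 passed 2-fold upward and 1 downward, against 9.81% and 11.2% of all measured probes.

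Against Treg, si-RL had 0 members at least 2-fold higher and 2 lower (Ikzf2 and Ikzf4, of which Ikzf4 fell short with a normexp background), where 7.89% of 17084 genes were higher and 8.21% lower. The library labelled si-Eos had 1 member higher (Ikzf3, which fell short under spike-in scaling and with the mean of its probes) and 1 lower (Ikzf1), where 8.84% of 17899 genes were higher and 10.0% lower. The medians of the members were -0.24 and -0.25, against -0.01 and 0.06 over all genes. By probe, 0 of 14 were higher and 7 lower in si-RL, against 8.56% and 7.7% of all measured probes, and 1 was higher and 2 lower in si-Eos, against 8.49% and 10.1%. Both comparisons use the same Treg array. Ikzf2 differed by more than all but 0.65% of genes in si-RL, while in si-Eos 56.3% of genes differed by more than Ikzf2.

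Against naive T cells, si-RL had no member 2-fold different by its brightest probe, where 10.1% of genes were at least 2-fold higher and 8.97% lower. The largest member differences were 0.82 for Ikzf3 and -0.69 for Ikzf1, and Ikzf2 was at 0.58. In si-Eos, Ikzf2 was higher by 4.17 and Ikzf3 by 2.25, with Ikzf1 lower by a log2 difference of -2.39, where 12.7% of genes were higher and 12.1% lower. By probe, 2 of 14 were higher and 0 lower in si-RL, against 10.9% and 8.45% of all measured probes, and 9 were higher and 1 lower in si-Eos, against 12.4% and 12.5%. In the order of levels, naive T cells were the lowest array for 7 of the 14 probes and si-RL for 5. Treg was highest for 6 probes and si-Eos for 6.

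**Figure D3:**
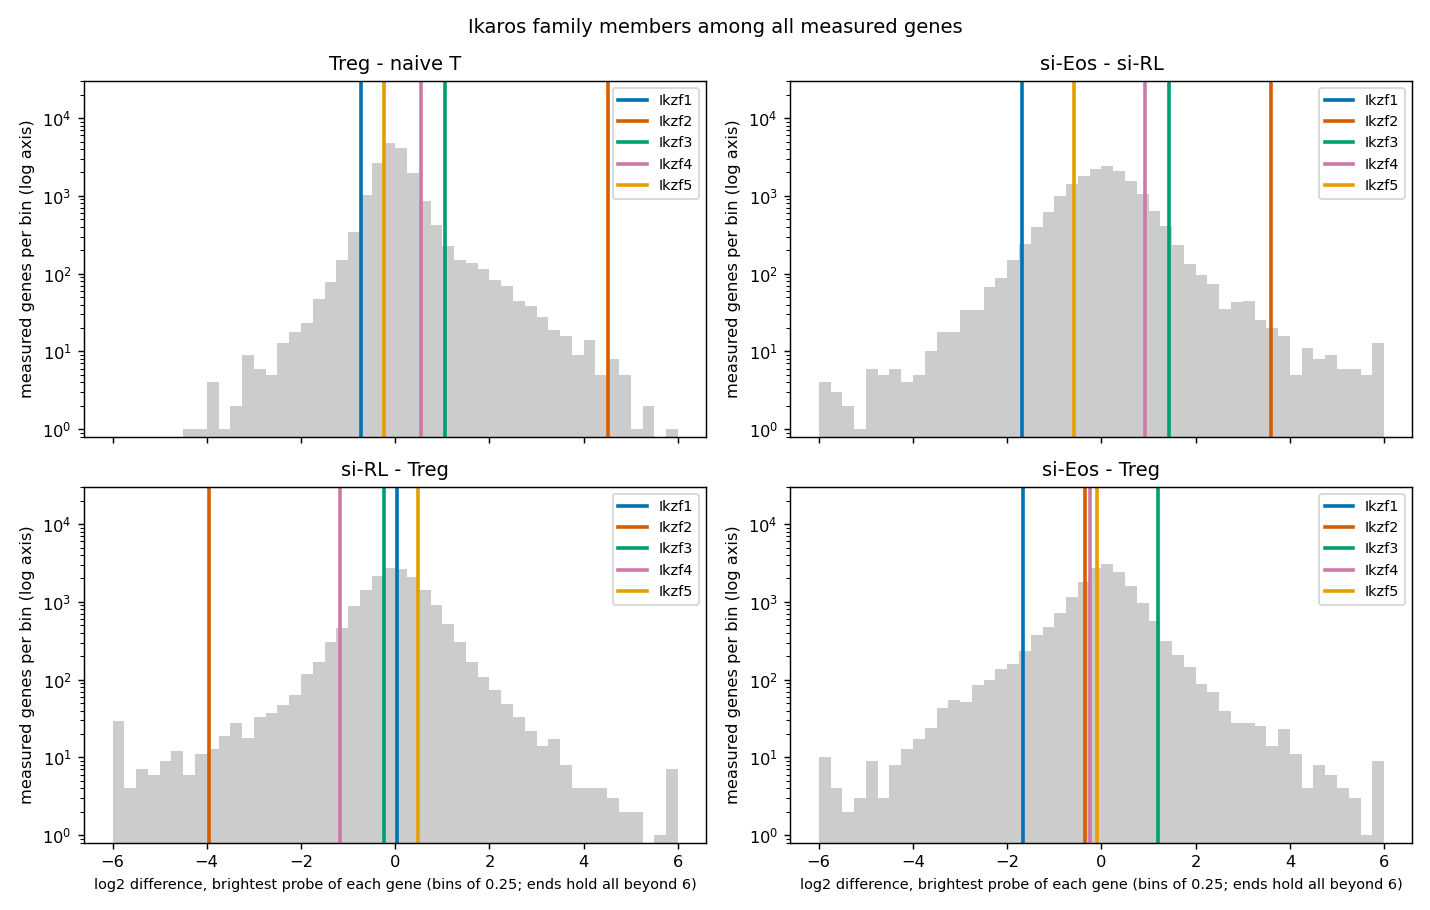
Number of measured genes per bin of log2 difference (brightest probe of each gene, bins of 0.25, log axis) in 4 comparisons, with a line for each Ikaros family member. Ikzf2 lies in the tail for Treg against naive T cells (4.53), si-Eos against si-RL (3.59) and si-RL against Treg (-3.95), and near the middle for si-Eos against Treg (-0.36).

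Genes whose level followed a member across the 4 arrays were named by the smallest root mean square distance between centred log2 levels, among 16448 genes above background on all arrays. With 4 arrays many genes share a pattern, and the distances are a description. For Ikzf2 the nearest was Ica1 at a distance of 0.30, with signals of 10.2, 186, 198 and 10.4 for naive T cells, Treg, si-Eos and si-RL. Csf1, a growth factor for macrophages, followed at 0.32 and Igfbp7, which binds insulin-like growth factors, at 0.35. For Ikzf1 they were 5830428M24Rik (0.03), Frat2 (0.06) and Acyp1 (0.08), for Ikzf3 Map7d1 (0.06), Olfr1394 (0.06) and Prep (0.07), and for Ikzf4 Mogs (0.03), Fbxw27 (0.04) and B230319C09Rik (0.06). No gene lay as near to Ikzf2 as these lay to the other members. The distance is not scaled for range, and Ikzf2 had the widest range, 4.53 log2 units. Ica1 was dim in naive T cells and si-RL, where the lowest signals above background were 8.9 and 9.08. Among the members, Ikzf4 and Ikzf5 were the nearest pair at 0.66 and Ikzf1 and Ikzf2 the farthest at 2.71. Ikzf4 and Ikzf5 also had the narrowest ranges, 1.18 and 0.58 log2 units. By nearness to Ikzf4, Ikzf5 ranked only 10748 among the 16448 genes, so the pair did not share a close pattern. Ikzf5 spanned less than 1 log2 unit and was given no neighbours.

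The proteins through which Ikaros factors act on chromatin were next examined by their genes, 18 in all: NuRD subunits, Sin3a and Sin3b, Ctbp1 and Ctbp2, and the SWI/SNF ATPase Smarca4. All 18 were measured in the 4 comparisons, and 0 differed by 2-fold for Treg against naive T cells or between the hairpin libraries. Over all genes, 5.52% were higher and 2.04% lower in the first comparison and 10.7% and 10.1% in the second. The medians of the list there were 0.19 and 0.04. In si-RL against Treg, Mbd2, a methyl-CpG binding NuRD subunit, was higher by 1.22 ± 0.20. In si-Eos against Treg, Ctbp2 was higher by 1.83 ± 0.28 and Sin3b by 1.06 ± 0.20. The Ctbp2 probe was dim, with signals of 18.7, 19.0, 55.3 and 25.1 for naive T cells, Treg, si-Eos and si-RL. Ctbp1, the corepressor described with Eos, had signals of 6817, 8300, 7860 and 8452, and differed by -0.39 ± 0.20 between si-Eos and si-RL. Chd4, the NuRD ATPase known as Mi-2β, had signals of 4842, 7911, 6525 and 7879, and differed by -0.56 ± 0.20.

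Foxp3 and the transcription factors that are known to act with it or share its targets, 9 genes, were all measured. For Treg against naive T cells, 4 counted as higher and 2 as lower, with a median of 0.23, where 5.52% and 2.04% of all genes did. Foxp3, the defining Treg factor, had signals of 64.4, 1778, 2644 and 110 for naive T cells, Treg, si-Eos and si-RL, a split of the arrays like that of Ikzf2. Its difference between Treg and naive T cells was 4.42, with Treg higher. Irf4 was at 1.75, Gata1 at 1.60, and Lef1, a factor of naive T cells, at -2.14. Between the hairpin libraries 2 were higher in si-Eos (Foxp3 by 4.30 and Irf4 by 2.14) and 2 lower (Lef1 at -2.88 and Runx1 at -1.06), with a median of 0.00, where 10.7% and 10.1% of all genes were. In si-RL against Treg, Foxp3 was at -3.43, Lef1 at 2.37, Satb1 at 2.28 and Nfatc2 at 1.07. In si-Eos against Treg, Irf4 was at 2.19 and Satb1 at 1.32, and no gene of the list was 2-fold lower.

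Genes reported elsewhere as targets of Ikaros family proteins, 20 on the list, gave no common direction. For Treg against naive T cells, 15 were measured, 3 counted as higher and 2 as lower, where 5.52% and 2.04% of all genes did, and the median was 0.00. The largest were Il10 at 3.60, Ifng at 2.86, Tbx21 at 2.49 and Il7r at -1.87. Il10 was dim in naive T cells, with a signal of 12.99, where the lowest signal above background was 8.9. Between the hairpin libraries 16 were measured, with 3 higher and 3 lower in si-Eos and a median of -0.03, where 10.7% of all genes were higher and 10.1% lower. Ifng, which encodes interferon-γ, was at 4.78 and Tbx21, which encodes T-bet, at 3.19. The Notch receptor gene Notch3 was at -2.94 ± 0.26 and the survival gene Bcl2 at -1.39. Notch3 was dim in si-Eos, with a signal of 17.44, where the lowest signal above background was 9.12. Il10 was not well above background in si-RL and was at least 158-fold higher in si-Eos. Il2, a cytokine gene that Eos, Ikaros and Foxp3 have been reported to silence, was dim on all arrays, with signals of 18.3, 32.2, 27.2 and 16.4, and differed by 0.44 ± 0.28 for Treg against naive T cells and 0.45 ± 0.31 between the hairpin libraries.

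Of the targets measured on all 3 arrays, Dtx1 and Myc were at least 2-fold from Treg in the same direction in both hairpin libraries. Dtx1, a gene of the Notch pathway, had signals of 4345, 5226, 78.1 and 81.1 for naive T cells, Treg, si-Eos and si-RL. It was at -5.43 in si-RL and -5.77 in si-Eos against Treg. Myc had signals of 2162, 3327, 9460 and 9440, and was higher than in Treg by 2.09 in si-RL and 1.80 in si-Eos. In si-RL against Treg the list had 2 higher and 2 lower of 15 measured (median 0.05), where 7.89% and 8.21% of all genes were. In si-Eos against Treg it had 4 higher and 1 lower of 16 (median 0.22), where 8.84% and 10.0% were. Among measured genes, the other largest values were -4.56 for Ifng and 1.61 for Bcl2 in si-RL, and 3.40 for Il10 and 3.19 for Tbx21 in si-Eos. In si-RL, Notch3, not well above background in Treg, was at least 14.6-fold higher and Il10 at least 15.0-fold lower. No Ikaros family member was 2-fold different from Treg in the same direction in both hairpin libraries by its brightest probe.

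**Figure D4:**
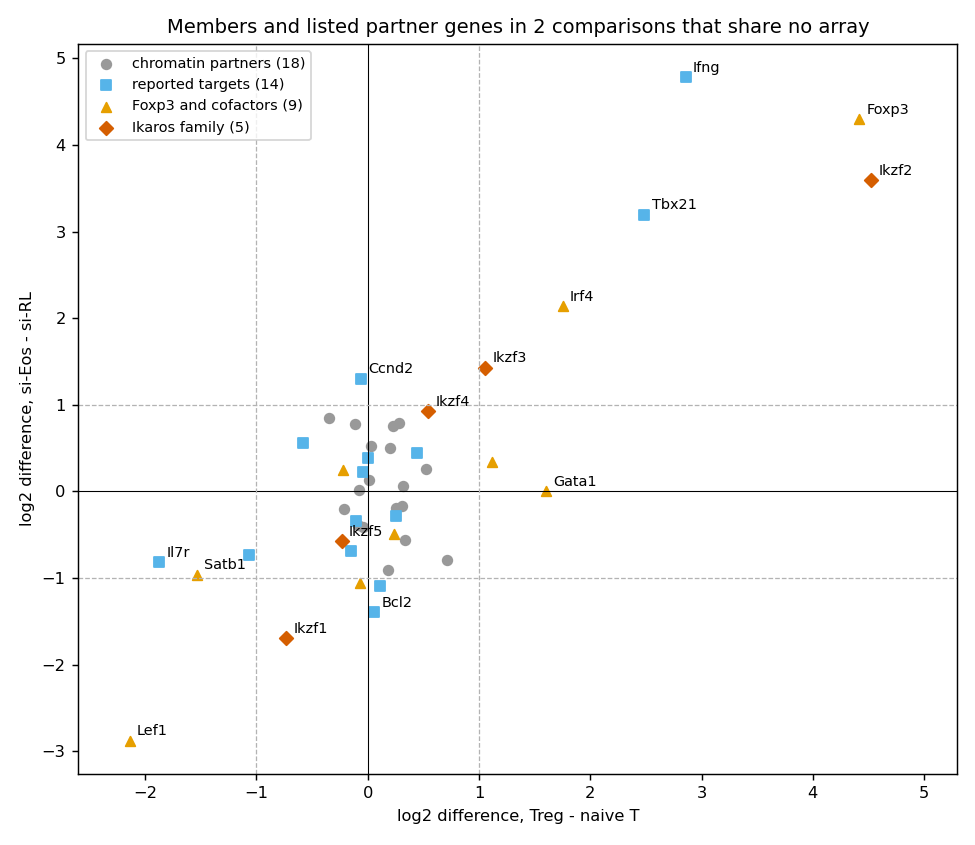
Log2 differences of the Ikaros family members and the listed partner genes, Treg minus naive T cells on the x axis and si-Eos minus si-RL on the y axis, for genes measured in both, with dashed lines at 2-fold. Ikzf2 lies beside Foxp3 at the upper right, Ikzf1 lies at the lower left, and the 18 chromatin partners lie within 2-fold on both axes.

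Markers of cell types were read beside these results, since a sorted library can hold other cells, and since in bulk RNA fewer cells of a type and less RNA per cell cannot be told apart. All 9 T cell markers were above background on all arrays, and their summed scaled level was 385 in naive T cells, 339 in Treg, 332 in si-Eos and 201 in si-RL. The summed level of the 11 Treg markers was 36.3, 214, 447 and 153 in that order. Such a sum gives bright probes more weight, so it does not show how many markers differed. By gene, all 11 Treg markers passed 2-fold upward in Treg against naive T cells (median 3.22), where 5.52% of all genes did. In si-Eos against si-RL, 10 were at least 2-fold higher and 0 lower (median 2.49), where 10.7% and 10.1% of all genes were. In si-RL against Treg, 8 of the 11 were at least 2-fold lower and 0 higher (median -2.43), where 8.21% and 7.89% were. Against naive T cells, si-RL had 4 higher and 1 lower, where 10.1% and 8.97% were. In si-Eos against Treg, 2 were higher and 1 lower (median 0.37), where 8.84% and 10.0% were. Ikzf2 thus had the direction of most Treg markers in the first 3 of these comparisons. The summed level of the 7 naive markers was 223, 98.7, 86.9 and 168, whereas Ikzf1 differed by 0.04 ± 0.20 between Treg and si-RL. The part of the mix of cells in the Ikzf1, Ikzf2 and Ikzf4 differences was not tested.

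Markers of other lineages were read in the same way. For B cells, in which Aiolos and Ikaros are also expressed, the summed level was 4.08 in naive T cells, 7.35 in Treg, 2.24 in si-Eos and 1.28 in si-RL, with 6 to 7 of 9 markers above background. Pax5 was below background on the naive T, Treg and si-RL arrays and Blk on all 4. In si-Eos against Treg the brightest Ikzf3 probe was higher. Of 6 B cell markers measured there, 0 were at least 2-fold higher and 3 lower (median -0.75), where 8.84% and 10.0% of all genes were. Cd79b was at -2.76, Cd74 at -2.34 and Ms4a1 at 0.06. Pax5, above background in si-Eos only, was at least 2.75-fold higher. The 8 NK and CD8 markers summed to 8.04, 9.13, 56.1 and 4.05, highest in si-Eos like Ikzf3 probe 1 and Tbx21, and 6 to 8 of them were above background. By gene, 2 of 6 measured were at least 2-fold higher in si-Eos than in si-RL and 0 lower (median 0.35), where 10.7% and 10.1% of all genes were. Against Treg, 4 of 7 were higher in si-Eos and 0 lower (median 1.09), where 8.84% and 10.0% were. Against naive T cells, 2 of 7 were higher and 1 lower (median 0.07), where 12.7% and 12.1% were. Myeloid markers summed to between 1.89 and 2.09 on the 4 arrays. The part of these cells in the Ikzf3 differences was not tested.

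**Figure D5:**
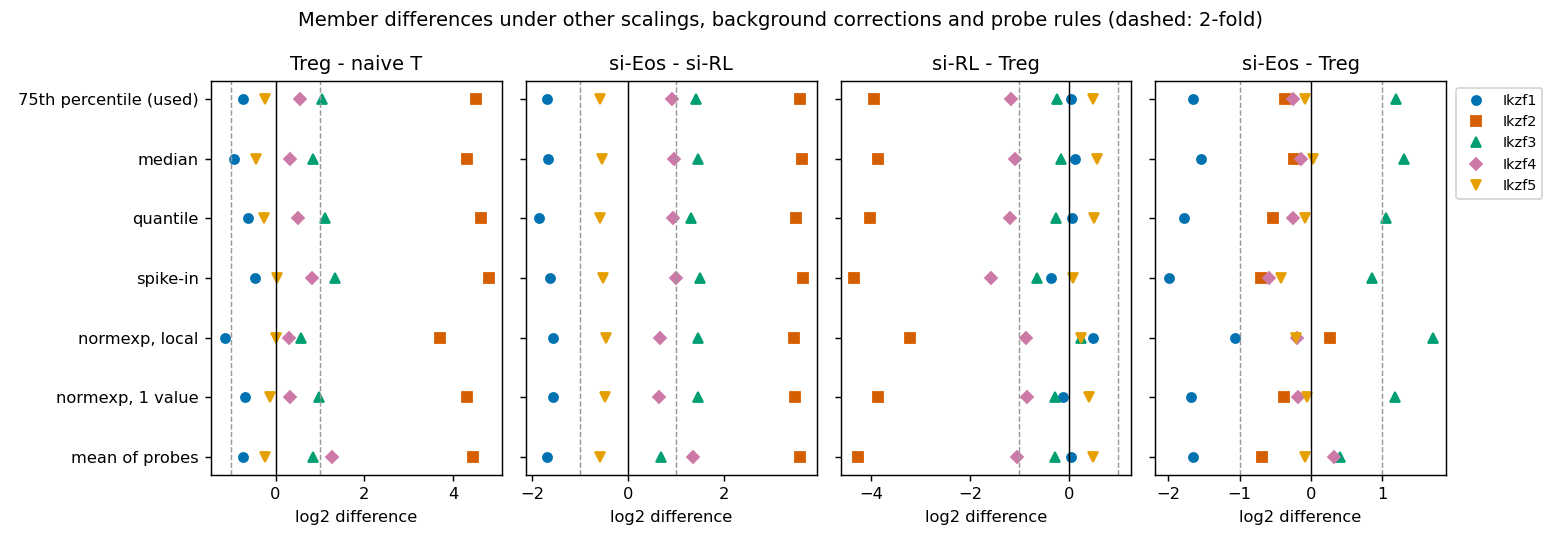
Log2 difference of each Ikaros family member under the scaling used and 6 other ways of scaling, correcting background or joining probes, in 4 comparisons, with dashed lines at 2-fold. Ikzf2 stays beyond 2-fold in the first 3 panels under all of them, while Ikzf3 and Ikzf4 cross the 2-fold line with the choice of scaling, probe or background. For Treg against naive T cells, Ikzf1 crosses it with normexp on local background, at -1.15.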

How the data were processed

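RNA of 4 CD4+ T cell samples was measured with Cy3, 1 array each. Spot intensity values were deposited as Agilent Feature Extraction 9.5.3.1 output, background-subtracted by spatial detrending and not normalized between arrays, and probes carry mm8 coordinates, per the file headers. The authors' series table held the same intensity values (ratio 1.00). Amplification was linear, per the labels' protocols.

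From these, the processed signal was put on the log2 scale and the 75th percentile of that array's 41174 non-control probes was subtracted, with Python 3.11.15 and numpy 2.4.6. Flagged outlier spots were left out (71 to 94 of 43379 per array). None was saturated. The scanner error holds a fixed multiplicative term of 10%. Probes were named by accession (24375), symbol (6301) or synonym (2426) from RefSeq's GRCm38.p6 table, and 8072 kept the file's name. A gene was read by its brightest probe and was measured where well above background on both arrays. "At least" folds set the bright array's level against the higher of the dim probe's level and the lowest level above background. Counting was tested on simulated data.

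Alternatives were median, quantile and spike-in scaling, normexp backgrounds (limma 3.58.1, R 4.3.3, offset 50), the mean of probes, a 1.5-fold threshold, no filter on dim probes and the series table. Named were all members, the 3 nearest genes of members that spanned at least 1 log2 unit, and up to 4 genes per list and comparison at least 2-fold apart, largest first; Ctbp1, Chd4, Il2, the B cell markers and the bounds for Il10 and Notch3 were added after their values were seen. The members and lists were chosen with earlier results of these data known. Sequences of the probes and members were not used here.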

Additional observations from a re-analysis of the deposited data

Results flagged for a closer look

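On Ikzf4 (Eos) probe 2 the hairpin libraries differed from Treg in opposite directions, with si-Eos above and si-RL below, a gap of 1.96 on the log2 scale. On Ikzf4 probe 3 they also went opposite ways, with a gap of 1.19. With normexp on local background, probe 3 was below Treg in both libraries, at -0.52 in si-Eos and -1.13 in si-RL. The gap there was 0.61. Each side was 1 array, so the difference was not tested.

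Probes without a current gene name that lie within 25 kb of a member's probe, with no other named gene's probe between, also gave signal above background. Near Ikzf1, AK040217 (chr11:11636342-11636401, mm8) had signals of 174, 226.8, 71.8 and 119 for naive T cells, Treg, si-Eos and si-RL. AK037394 (chr11:11640970-11641029, mm8) had 234.9, 212, 59.9 and 112. Both lie on the strand of the Ikzf1 probe and were lowest in si-Eos, as Ikzf1 was, at log2 differences of -1.01 ± 0.21 and -1.19 ± 0.21 against si-RL.

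Near Ikzf2, AK040429 (chr1:69479876-69479935, mm8), which the file describes as a Helios cDNA but places on the other strand, reached 52.68 in Treg and was not well above background on the other arrays. Near Ikzf4, TC1693899, described as a partial ribosomal protein S26 sequence, reached 129.5 in si-RL, its highest array, where Ikzf4 was below Treg on all 3 probes. Near Ikzf5, AK028520 had a highest unscaled signal of 102.3 and AK086436 of 48.35, both on the Treg array, whose signals were the highest in general. After scaling, AK028520 was at 0.35 ± 0.21 in si-RL against Treg and AK086436 at -0.15 ± 0.23 in Treg against naive T cells. AK086436 was at -1.21 ± 0.28 in si-Eos against Treg, where Ikzf5 was at -0.09 ± 0.20.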

How the results depend on the processing

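The 20 differences of the members in 4 comparisons were recomputed. The filter on dim probes could not change them, since all 14 probes passed it, and the series table held the same intensities. The other 6 alternatives gave 112 values that could move, counting the mean of probes for members with several probes only. Of these, 104 had the same sign and 67 lay within the scanner error of the value reported. Of the 9 differences that reached 2-fold, 0 changed sign. Ikzf2 ranged from 3.71 to 4.80 for Treg against naive T cells, 3.47 to 3.66 for si-Eos against si-RL and -4.36 to -3.21 for si-RL against Treg. Ikzf1 ranged from -1.85 to -1.56 for si-Eos against si-RL and -2.00 to -1.06 for si-Eos against Treg.

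The counts of members moved as follows. For Treg against naive T cells, the higher count went from 2 to 1 under median scaling and both normexp backgrounds, where Ikzf3 was lost, and the lower count went from 0 to 1 (Ikzf1) with normexp on local background and at 1.5-fold. For si-RL against Treg the lower count went from 2 to 1 under both normexp backgrounds, where Ikzf4 was lost. For si-Eos against Treg the higher count went from 1 to 0 under spike-in scaling and with the mean of probes, where Ikzf3 was lost. With the mean of probes Ikzf4 replaced Ikzf3 among the 2 members higher in Treg and the 2 higher in si-Eos than si-RL, at 1.28 and 1.36. At 1.5-fold, the count higher in si-Eos than si-RL went from 2 to 3 (Ikzf4 added). The cause was not tested.

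Sign changes were limited to differences under 2-fold: Ikzf5 for Treg against naive T cells (up to 0.04), Ikzf1 (-0.36 to 0.50) and Ikzf3 (up to 0.25) for si-RL against Treg, and Ikzf2 (up to 0.26), Ikzf4 (up to 0.32) and Ikzf5 (up to 0.03) for si-Eos against Treg. Scaling moved the median of all genes by over 0.1 from its value as reported: to 0.25, -0.41 and -0.28 under spike-in scaling for Treg against naive T cells, si-RL against Treg and si-Eos against Treg, to 0.21, -0.31 and -0.36 with normexp on local background, and to -0.23 for Treg against naive T cells and 0.18 for si-Eos against Treg under median scaling. With normexp on 1 background per array it moved to 0.11 for si-RL against Treg. The share of higher among called genes moved with it, from 73.0% to 55.6% (median), 87.9% (spike-in) and 83.8% (normexp, local) for Treg against naive T cells, from 49.0% to 16.7% and 17.7% for si-RL against Treg, and from 46.8% to 23.7% and 19.7% for si-Eos against Treg. No replicate could be left out, and no paired analysis was possible because each group had 1 array.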
